A study of Mus musculus with 57 samples.

Results

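The nuclear genes that encode the structural subunits of the mitochondrial respiratory chain were followed across 6 groups of mice with or without the Mfn2 R707W knock-in. A gene was a member if its symbol began with Nduf followed by a, b, c, s or v (assembly factors of the Ndufaf series left out), was Sdha, Sdhb, Sdhc or Sdhd, began with Uqcr, began with Cox4 to Cox8, or began with Atp5, if the deposited tables classed it as protein-coding and if it was not marked as a pseudogene. The rule matched 85 symbols in 86 entries, of which Atp5f1 and Atp5s had no counts in the tables and 1 entry repeated Atp5o. The remaining 83 members, of 52853 genes, comprised 38 of complex I, 4 of complex II, 8 of complex III, 18 of complex IV and 15 of complex V. Of these, 81 had enough counts to be tested in each comparison, whereas Cox7b2 and Cox8c, whose products are testis-type isoforms of cytochrome c oxidase, were at or near 0 in each group and were not tested.

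The respiratory chain sits in the inner mitochondrial membrane. Complexes I and II pass electrons from NADH and succinate to ubiquinone, complex III passes them on to cytochrome c and complex IV to oxygen, and complex V uses the resulting proton gradient to make ATP. Complex II is encoded by nuclear genes alone, whereas the other 4 complexes also contain proteins made from mitochondrial DNA (mtDNA), so that their assembly needs products of both genomes. In brown adipose tissue (BAT), which is packed with mitochondria, uncoupling protein 1 (Ucp1) lets protons return without ATP synthesis and heat is released. White adipose tissue (WAT) has far fewer mitochondria and stores triglyceride.

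RNA of male C57BL/6J mice had been sequenced, in 41 columns with 1 mouse each. Whether BAT and inguinal columns share mice is not stated, and they were treated as independent. The mice were either wild type (WT) or homozygous for the R707W missense change (KI) in the endogenous Mfn2 gene, which encodes the mitochondrial outer membrane fusion protein mitofusin 2. The KI line came from a single founder made with CRISPR-Cas9 and also carried a silent change that creates an EcoRV site and, by the methods, 1 additional silent change upstream, so that KI and WT may differ by all of these, and KI mice were compared with WT littermates. From 5 or 7 weeks of age, on which the sources differ, mice ate a high fat diet (HFD, 45% of energy from fat) or chow for 6 months. The groups were inguinal WAT on HFD (8 WT, 8 KI), inguinal WAT on chow (7 WT, 6 KI) and BAT on HFD (6 WT, 6 KI).

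Total counts per mouse were 17572752 to 25680411 in inguinal WAT on HFD, for which each mouse had 2 technical replicates in 1 column, and 8042591 to 11720458 in the other 2 tables. Mfn2 itself was measured at 128.6 to 416.9 CPM (counts scaled to a common library size) over all 41 columns, and since the change is a missense change, its level does not check the labels. Ucp1 was at 3345 to 6390 CPM in BAT and at most 2.012 CPM in each inguinal library, as the tissue labels have it. Skeletal muscle markers stood out in 5 libraries, summing to 5937 and 3411 CPM in HFD KI mice 3 and 5, to 87220 CPM in chow KI mouse 4, and to 2902 and 3262 CPM in BAT WT mice 1 and 2. Epithelial markers summed to 163.6 CPM in chow WT mouse 4. The counts of members called are given below with and without these 6 mice where this changed them by over 1.5 times or ended a named call, a set that was chosen after the data were seen. On HFD that set held KI mice alone. HFD WT mice 1 and 2 had 1751 and 1860 CPM of muscle markers, below its limit of 2000 CPM, and were kept. Counts cover RNA of whole tissue, so fewer cells of a type and less RNA per cell cannot be told apart.

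Promoter sequences of 3 members are shown because the results below turn on them: Sdhb was higher in KI in inguinal WAT on both diets, Ndufb3 was lower in KI on HFD, and Cox8b rose in KI on both diets and had the largest tissue and diet differences. Each is a window of 300 bases of the mouse reference, from 250 bases before the RefSeq transcription start to 50 after it (RefSeq, GRCm38.p6), written 5′ to 3′ on the strand of the gene. Capitals mark letters that matched 1 of the 6 motifs searched. For Sdhb, on chr4:140961021-140961320 (plus strand), these are GCATGCGC, the core letters bound by nuclear respiratory factor 1 (NRF1), and CCGGAAG, an ETS family motif of the kind bound by GABP.
Sdhb: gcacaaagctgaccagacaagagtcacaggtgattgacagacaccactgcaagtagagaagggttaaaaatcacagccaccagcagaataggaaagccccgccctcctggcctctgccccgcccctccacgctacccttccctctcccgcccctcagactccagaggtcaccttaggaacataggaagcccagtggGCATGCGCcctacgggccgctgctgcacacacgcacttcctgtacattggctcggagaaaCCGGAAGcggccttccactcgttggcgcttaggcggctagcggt
For Ndufb3, on chr1:58586147-58586446 (plus strand), none of the 6 motifs was in the window.
Ndufb3: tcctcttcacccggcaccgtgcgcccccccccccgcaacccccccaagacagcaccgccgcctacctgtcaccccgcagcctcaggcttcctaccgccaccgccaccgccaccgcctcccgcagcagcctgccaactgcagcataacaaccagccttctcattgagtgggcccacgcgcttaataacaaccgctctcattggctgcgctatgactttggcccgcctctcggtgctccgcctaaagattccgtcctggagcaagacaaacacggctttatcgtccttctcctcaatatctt
For Cox8b, on chr7:140900397-140900696 (minus strand), capitals mark TATAAA, the letters of a TATA box core, which here begin at position 5 after the start rather than before it.
Cox8b: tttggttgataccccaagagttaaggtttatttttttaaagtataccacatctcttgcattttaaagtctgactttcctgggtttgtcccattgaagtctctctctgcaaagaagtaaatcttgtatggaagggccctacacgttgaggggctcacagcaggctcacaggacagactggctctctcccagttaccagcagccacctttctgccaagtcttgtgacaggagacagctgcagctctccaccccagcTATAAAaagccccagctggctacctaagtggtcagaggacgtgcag

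Promoter windows were available for 67 of the 83 members (72 windows, of 32851 windows for 27025 gene symbols). Both strands were searched, and no motif searched here contains another. The NRF1 letters GCATGCGC were in 10 of 72 member windows (13.9%) and in 2.71% of all windows. The ETS letters CCGGAAG were in 16 member windows (22.2%) and in 8.86% of all windows. AAGATGGC, a core of the motif bound by YY1, was in 9 member windows (12.5%, against 2.75% of all), among them those of 7 of the 33 complex I genes with a window. AAGGTCA, the half-site of the estrogen-related receptors, was in 8 member windows (11.1%, against 4.72%), and TATAAA in 8 (11.1%, against 13.6%). TGATGNAA, a composite element bound by ATF4 and CHOP, was in 0 of 72 member windows and in 3.97% of all windows. The member windows were rich in CpG, with a median of 19 CpG dinucleotides (range 2 to 43) against 7 over all windows, and the window of Cox8b, with 2, was at the bottom of that range, below Ndufb3 with 22 and Sdhb with 15. A match describes these letters and does not show that a factor binds there.

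Summed over the members, the nuclear-encoded chain took a far larger part of the RNA in BAT than in inguinal WAT, and more in KI than in WT by median in each of the 3 settings. Members made up a median of 1.06% of counts in HFD WT and 1.31% in HFD KI, 1.79% in chow WT and 2.13% in chow KI, and 6.81% in BAT WT and 7.89% in BAT KI. On a scale set jointly over all 41 columns, the members summed to a median of 9514 CPM in HFD WT (8669 to 10580) and 10970 in HFD KI (9679 to 12280). On chow the sums were 16250 CPM in WT (11590 to 18820) and 20510 in KI (17690 to 26640). In BAT they were 88680 CPM in WT (70510 to 107900) and 109200 in KI (84140 to 126400). The ranges of WT and KI overlapped in all 3 settings. By complex they did not overlap in 3 cases. The complex II sum was 578.3 to 762.5 CPM in HFD KI and 459.7 to 571.7 in HFD WT. On chow it was 999.9 to 1268 CPM in KI and 578 to 971.2 in WT, and the complex V sum on chow was 5844 to 7454 CPM in KI and 3471 to 5518 in WT.

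**Figure D1:**
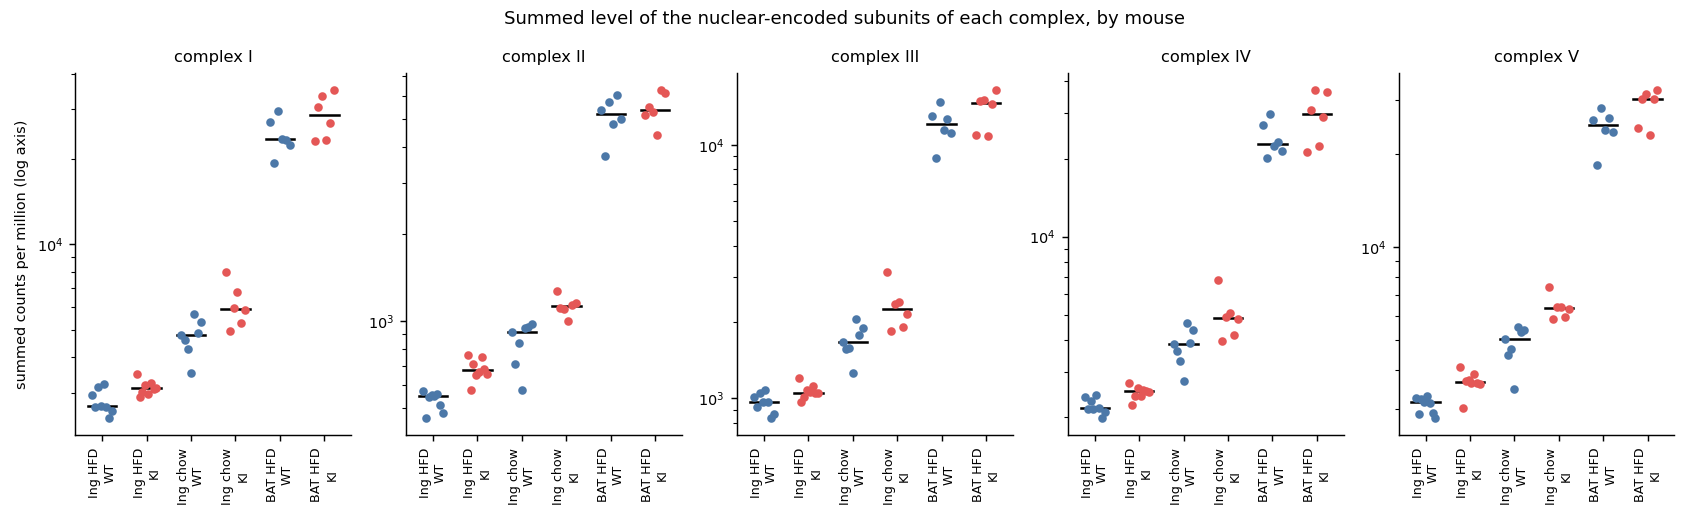
Summed CPM of the nuclear-encoded subunits of each complex on a log axis, 1 point per mouse, for WT (blue) and KI (red) in inguinal WAT on HFD (8 and 8), inguinal WAT on chow (7 and 6) and BAT on HFD (6 and 6), with black lines at group medians. In each complex BAT stands highest and inguinal WAT on HFD lowest. In complex II the KI points lie above all WT points in both inguinal settings, and in complex V they do so on chow.

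In inguinal WAT on HFD, the question was which subunit mRNAs differ between KI and WT. Of 81 members tested, 16 rose in KI and 1 fell (edgeR quasi-likelihood test, Benjamini-Hochberg adjusted p below 0.01 over 16471 genes), where 6.21% of all genes tested were called higher and 5.24% lower. The changes were small: the median log2 difference of the members, KI minus WT, was 0.17, against 0.01 over all genes tested, and 70 of 81 members had a positive difference, against 50.8% of all genes. At an unadjusted p below 0.05, 36 members passed, as did 5426 of all 16471 genes tested. The called members fell in all 5 complexes, with 3 of 4 in complex II, 7 of 38 in complex I, 1 of 8 in complex III, 3 of 16 tested in complex IV and 3 of 15 in complex V.

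Complex II, succinate dehydrogenase, which also serves the citric acid cycle, held the member with the smallest p. Sdhb, the iron-sulfur subunit (gene at 4:140961203-140979193, GRCm38, the promoter above lying at its start), was at 96.3, 100.9 and 116 CPM (lowest, median, highest) in the 8 WT mice and at 130.6, 172.9 and 182.3 in the 8 KI mice. Each KI mouse was above each WT mouse. The log2 difference was 0.70 (SE 0.07, edgeR adjusted p = 9.15e-07), and a two-sided exact permutation test on log2(CPM + 0.5) gave p = 0.000155, the smallest that 8 against 8 can give. Sdha, the flavoprotein that oxidises succinate, rose by 0.37 (SE 0.09, adjusted p = 0.00731, edgeR), from 208.4, 253 and 300.6 CPM in WT to 282.3, 321.5 and 390.5 in KI. Sdhc, a membrane anchor, rose by 0.32 (SE 0.06, adjusted p = 0.00066, edgeR). The other anchor, Sdhd, had a log2 difference of 0.04 (adjusted p = 0.817, edgeR).

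In complex I, NADH dehydrogenase, 6 members rose and 1 fell. Ndufv1, the flavoprotein that takes electrons from NADH, was at 84.7, 100.8 and 114.8 CPM in WT and 106.3, 141.6 and 158.2 in KI (log2 difference 0.48, SE 0.09, adjusted p = 0.000583, edgeR). Ndufs7, a core iron-sulfur subunit near the ubiquinone site, was at 91.4, 109.5 and 122.4 CPM in WT and 139.5, 149.1 and 163.4 in KI (0.47, SE 0.07, adjusted p = 8.05e-05), and the groups did not overlap. A pair of accessory subunits of the membrane arm rose by similar amounts, Ndufb10 by 0.43 (SE 0.09, adjusted p = 0.00222) and Ndufb8, a subunit of the panel the study probed by immunoblot, by 0.42 (SE 0.07, adjusted p = 0.000158). Those immunoblots measured protein in chow-fed mice. There the study reports less Ndufb8 in KI brown and white fat, and less Uqcrc2 in KI inguinal WAT. In inguinal WAT on chow the mRNA difference was 0.29 for Ndufb8 (adjusted p = 0.18, edgeR). It was 0.43 for Uqcrc2 (adjusted p = 0.0258, edgeR), and neither was past the threshold. Ndufa5 (0.40, adjusted p = 0.00635) and Ndufa9 (0.30, adjusted p = 0.000869), accessory subunits outside the rule for named genes, completed the 6. Other core subunits were below the threshold, with log2 differences of 0.20 for Ndufs1, 0.18 for Ndufs3, 0.15 for Ndufs8 and 0.10 for Ndufv2 (adjusted p 0.0531 to 0.393, edgeR).

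Ndufb3 was the one member called lower in any of the KI comparisons. This accessory subunit of the membrane arm (gene at 1:58586384-58595964) was at 50.7, 60.6 and 84.8 CPM in WT and at 39.2, 40.7 and 51.8 in KI, so that the ranges met only where the highest KI mouse passed the lowest WT mouse. The log2 difference was -0.55 (SE 0.10, adjusted p = 0.000778, edgeR; exact permutation p = 0.000311, two-sided). On chow the same gene was at 91.8, 120.7 and 131.8 CPM in WT and 95.8, 115.7 and 145.5 in KI (log2 difference -0.02, adjusted p = 0.923). The difference of these effects was -0.51 (adjusted p = 0.0614, edgeR) and was not past the threshold.

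In complex III, ubiquinol-cytochrome c reductase, Uqcrc1 rose by 0.32 (SE 0.07, adjusted p = 0.00181, edgeR), from 194.2, 226.9 and 237.2 CPM in WT to 229.9, 278.4 and 300.7 in KI. This core subunit was the only one of 8 called, although all 8 differences were positive (median 0.07). Its partner core subunit Uqcrc2 had a difference of 0.24 (adjusted p = 0.0865) and the Rieske iron-sulfur protein Uqcrfs1 one of 0.03 (adjusted p = 0.818, edgeR).

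In complex IV, cytochrome c oxidase, Cox4i1, Cox5a and Cox8b rose. Cox4i1, the ubiquitous form of subunit 4, was at 489.1, 558.8 and 617.2 CPM in WT and at 641.7, 719.3 and 762.1 in KI (log2 difference 0.34, SE 0.07, adjusted p = 0.0011, edgeR). Cox5a, its neighbour in the assembled enzyme, was at 72.7, 77.1 and 93.5 CPM in WT and at 94.6, 95.5 and 103.6 in KI (0.31, SE 0.06, adjusted p = 0.000682). Both were higher in every KI mouse than in every WT mouse, as were Sdhb and Ndufs7, which makes 4 members of 81, where 2.38% of all genes tested had every KI mouse above every WT mouse. Cox8b, the heart, muscle and brown fat form of subunit 8, had the largest called difference, 1.04 (SE 0.25, adjusted p = 0.00654, edgeR; exact permutation p = 0.00311), from a low level of 4.20, 7.51 and 12.1 CPM in WT to 8.32, 15.5 and 22.7 in KI.

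In complex V, ATP synthase, 3 subunits rose. Atp5b, the catalytic beta subunit, was at 1060, 1275 and 1407 CPM in WT and at 1282, 1667 and 1944 in KI (log2 difference 0.40, SE 0.09, adjusted p = 0.00339, edgeR). Atp5c1, the rotating gamma subunit, rose by 0.38 (SE 0.08, adjusted p = 0.00231) and Atp5o, of the peripheral stalk, by 0.30 (SE 0.08, adjusted p = 0.00844). Atp5a1, the alpha subunit, had a difference of 0.23 (adjusted p = 0.0492, edgeR) and was not called at this threshold.

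Of the 17 calls on HFD, 12 were kept in each of the 16 fits that left out 1 mouse. Atp5b was called in 14 of 16 (adjusted p 0.0136 without KI mouse 6, above threshold also without WT mouse 1). Sdha was called in 6 of 16, without KI mouse 2, 4 or 5 or WT mouse 3, 4 or 6 (highest adjusted p 0.0237), and Ndufa5 in 5 of 16, without KI mouse 2, 3 or 5 or WT mouse 3 or 5 (highest 0.0169). Cox8b was called in 5 of 16, without KI mouse 1, 2 or 8 or WT mouse 1 or 4 (highest 0.0148), and Atp5o in 1 of 16, without KI mouse 2 (highest 0.0279). Without HFD KI mice 3 and 5, the mice with the highest muscle markers, 13 members were called, and Ndufa5, Sdha, Cox8b (0.84) and Atp5o were not among them. That fit kept WT mice 1 and 2, with muscle markers at 1751 and 1860 CPM. The reads were counted without a stated strand rule, and Cox4i1, Cox5a, Ndufa9 and Atp5o overlap other transcribed genes, so their counts are less certain than those of Sdhb, Ndufs7 or Ndufb3. Scaling by total counts alone called 31 members (30 higher), where 11.1% of all genes were called higher and 3.96% lower. One fit of all 6 groups called 7 (6 higher), where 3.92% of all genes were called higher.

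**Figure D2:**
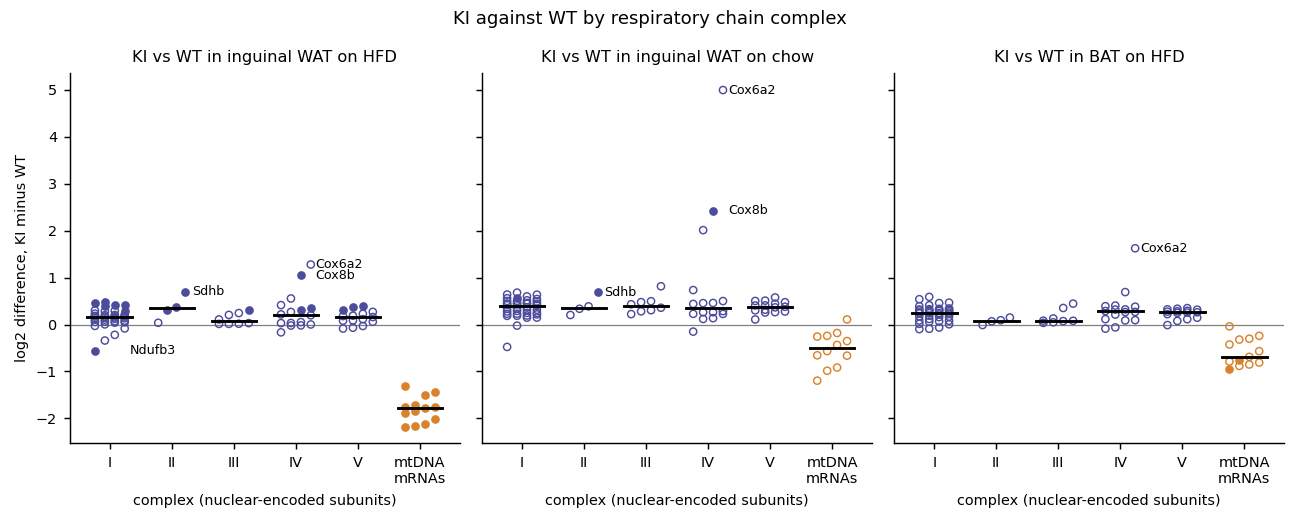
Log2 difference, KI minus WT, of each tested nuclear-encoded subunit by complex (blue) and of the mtDNA-encoded mRNAs (orange) in inguinal WAT on HFD, inguinal WAT on chow and BAT on HFD; filled points passed adjusted p below 0.01 (edgeR), open points did not, and black lines are medians. Medians of the nuclear-encoded complexes lie above 0 in all 3 panels, between 0.07 and 0.40, whereas those of the mtDNA-encoded mRNAs lie at -1.78, -0.50 and -0.69.

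In inguinal WAT on chow, differences between KI and WT were larger by median but few passed the test. Of 81 members, 3 rose in KI and 0 fell, where 2.06% of 14629 genes were called higher and 1.22% lower. The median log2 difference was 0.38 (all genes -0.00), and 78 of 81 differences were positive (50.0% of all genes). An unadjusted p below 0.05 was found for 57 members and for 3591 of all 14629 genes tested. Medians were alike in the 5 complexes, at 0.39 in complex I, 0.36 in II, 0.40 in III, 0.36 in IV and 0.38 in V. In 14 members every KI mouse was above every WT mouse, where this held for 2.86% of all genes tested: Ndufa10, Ndufa6, Ndufab1, Ndufb4 and Ndufs1 of complex I, Sdhb of complex II, Uqcrb, Uqcrc1 and Uqcrc2 of complex III, Cox6a2 and Cox8b of complex IV, and Atp5a1, Atp5c1 and Atp5o of complex V.

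Cox8b was the member with the largest called difference on chow. It was at 20.6, 37.1 and 64.9 CPM in the 7 WT mice and at 78.1, 211.1 and 391.9 in the 6 KI mice, which did not overlap (log2 difference 2.42, SE 0.37, adjusted p = 0.00139, edgeR; exact permutation p = 0.000583, two-sided, the smallest possible). Of 10 brown adipocyte markers, 5 were tested, of which 1 was called. This was Cidea, a lipid droplet protein, at 6.20 to 50.3 CPM in WT and 69.0 to 498.5 in KI (log2 difference 3.03, adjusted p = 0.0056). The other 4 tested had differences of -0.69 for Ppargc1a to 0.93 for Kcnk3 (edgeR adjusted p 0.052 to 0.424). The 10 markers summed to 63.8 to 170.6 CPM in WT and 163.4 to 815.2 in KI, a large part of which was Cidea, whereas Ucp1, which defines brown fat, was at most 0.961 CPM in each chow library. The part of brown adipocyte RNA in the Cox8b result was not tested.

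Sdhb was at 124.9, 213.4 and 256.2 CPM in chow WT and at 296.4, 311.6 and 399.7 in chow KI, again without overlap (log2 difference 0.68, SE 0.14, adjusted p = 0.00849, edgeR; exact permutation p = 0.00117). Ndufa10, an accessory subunit of complex I on the matrix side of the membrane arm (gene at 1:92439010-92473860), was at 125.7, 175.5 and 188.4 CPM in WT and at 222.1, 245.9 and 301.6 in KI (0.57, SE 0.10, adjusted p = 0.00399, edgeR; exact permutation p = 0.000583). On HFD the difference of Ndufa10 was 0.30 (adjusted p = 0.0217), not past the threshold. Other core subunits on chow had positive differences below the threshold (edgeR): 0.32 to 0.64 in complex I (Ndufs3 and Ndufs7, adjusted p 0.0907 and 0.0382), 0.39 for Sdha, 0.34 for Sdhc and 0.20 for Sdhd, 0.36 for Uqcrc1, 0.43 for Uqcrc2 and 0.28 for Uqcrfs1, and 0.41 for Atp5a1, 0.50 for Atp5b and 0.37 for Atp5c1. Cox8b was called in all 13 fits that left out 1 chow mouse and Ndufa10 in 11 of 13, not without WT mouse 2 (adjusted p 0.0114) or WT mouse 3. Sdhb was called in 2 of 13, without WT mouse 4 or 5 (highest adjusted p 0.0221), so that 1 member, Cox8b, was called without WT mouse 2 or 3. The count moved both ways with the tool and threshold. A threshold of 0.001 called 0 members, Cox8b included (0.629% of all genes higher). DESeq2 called 22, all higher (4.6% of all genes), a threshold of 0.05 called 25 (5.24%) and 1 fit of all 6 groups called 17 (3.96%).

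**Figure D3:**
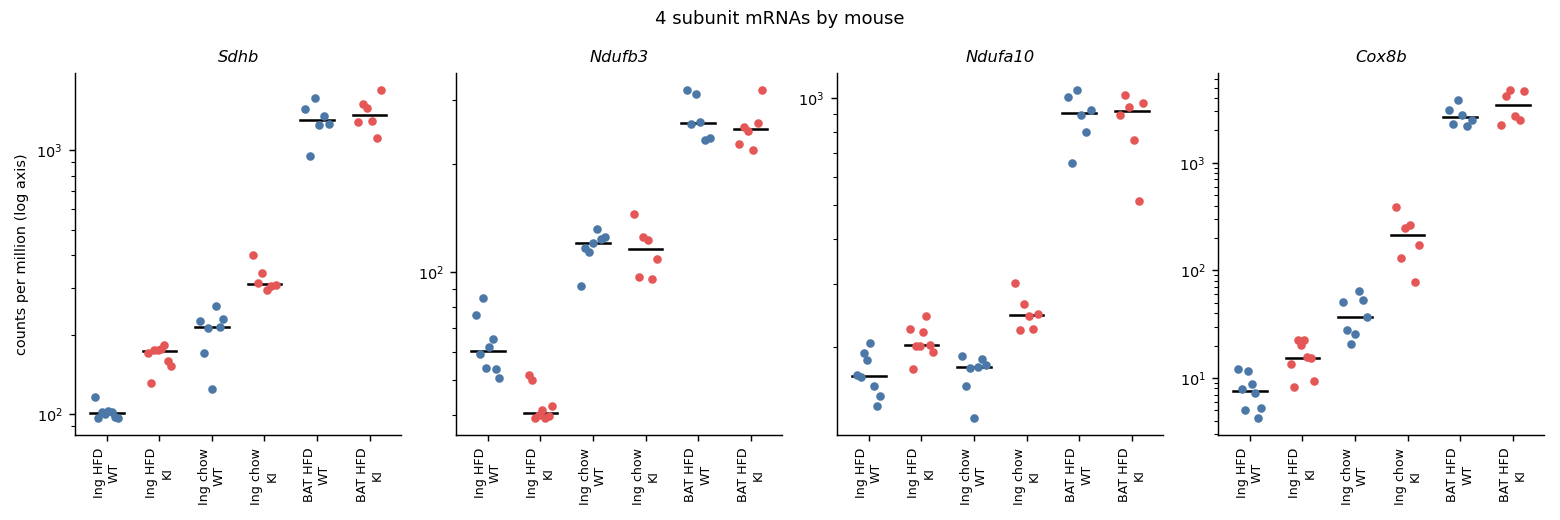
CPM of Sdhb, Ndufb3, Ndufa10 and Cox8b on log axes, 1 point per mouse, for WT (blue) and KI (red) in the 6 groups, with black lines at medians. Sdhb lies higher in KI than in WT without overlap in both inguinal settings, Ndufb3 lies lower in KI on HFD with medians of 40.7 and 60.6, and Cox8b spans 4.20 CPM in inguinal WAT to 4784 in BAT.

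In BAT on HFD, 0 of 81 members were called higher and 0 lower by edgeR, where 1.36% of 13267 genes were called higher and 0.475% lower. DESeq2 also called 0, where it called 3.36% of all genes higher and 2.03% lower. An unadjusted p below 0.05 was found for 19 members, a share near that of all genes (3242 of 13267). The median log2 difference was 0.25 (all genes -0.01), and 74 of 81 differences were positive (48.3% of all genes). By complex the medians were 0.25 in I, 0.08 in II, 0.08 in III, 0.28 in IV and 0.26 in V. In 0 members was every KI mouse above every WT mouse, as 2.26% of all genes were. The within-group spread was wide: WT mice ran from 70510 to 107900 CPM in the sum over members. On simulated BAT counts, 0% of 200 genes changed by a log2 of 0.5 were called. Those genes were drawn at random from all genes tested and were the only ones changed. The share of members that the test would call was therefore not measured. A count of 0 called members does not show that differences of this size are absent.

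The 5 members with the smallest p in BAT are given as values. Ndufa12, an accessory subunit of complex I, was at 145.9, 175.6 and 219.5 CPM in WT and at 195, 253.9 and 342.2 in KI (log2 difference 0.54, SE 0.15, adjusted p = 0.0407, edgeR; exact permutation p = 0.0108). Ndufa11, a membrane-arm subunit whose gene overlaps Vmac on the opposite strand, was at 188.5, 256.4 and 332.2 CPM in WT and at 269, 365.4 and 503 in KI (0.59, SE 0.17, adjusted p = 0.0428; exact permutation p = 0.0152). For both, the ranges overlapped. Cox7a2l, counted in complex IV by its symbol, had a difference of 0.39 (adjusted p = 0.0743, edgeR). Cox4i1 had 0.40 (adjusted p = 0.0881) and Ndufs7 0.41 (adjusted p = 0.101, edgeR). Sdhb, at 954.2, 1300 and 1573 CPM in WT and 1116, 1364 and 1695 in KI, had a difference of 0.09 (adjusted p = 0.73). Other subunits from the study's immunoblot panel had 0.17 for Ndufb8, 0.08 for Uqcrc2 and 0.28 for Atp5a1 (adjusted p 0.246 to 0.804).

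Whether the KI effect itself differed between diets or tissues was tested with interaction terms. Of 81 members, 0 were called in either direction between HFD and chow in inguinal WAT by edgeR, where 0.264% of 17400 genes were called higher and 0.58% lower. At an unadjusted p below 0.05 there were 18 members and 2974 of all 17400 genes, and DESeq2 called 1 member (Cox6a2, -3.74). The median difference was -0.19 (all genes 0.02), and 13 of 81 were positive (52.6% of all genes). Of 81 members, 0 were called between BAT and inguinal WAT on HFD by edgeR, where 1.58% of 17214 genes were called higher and 1.24% lower. There the median difference was 0.10 (all genes -0.002), and 58 of 81 were positive (49.8% of all genes). At an unadjusted p below 0.05 there were 10 members, a smaller share than that of all genes (3792 of 17214), and DESeq2 called 1 member, Sdhb. Sdhb had the smallest adjusted p in that comparison: its KI effect was 0.57 lower in BAT than in inguinal WAT (log2 difference -0.57, adjusted p = 0.0159, edgeR; -0.56 and 0.00365 with DESeq2). It passed 0.01 without BAT WT mouse 2, without BAT KI mouse 6 and without HFD KI mouse 2. Tissue or diet and table cannot be told apart in these comparisons, since each table held 1 tissue on 1 diet. The shares of all genes that DESeq2 called in these interaction tests are not reported here, so its single calls cannot be read against them.

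Where a subunit has several isoforms, their shares were compared per length, as the TPM (counts per base of merged exon, scaled to the same total in each library) of the isoform over that of its family. Cox8b was a median of 3.11% of Cox8a plus Cox8b in HFD WT and 5.16% in HFD KI, 10.8% in chow WT (6.71% to 15.0%) and 36.1% in chow KI (19.0% to 45.9%), without overlap on chow. In BAT it was 80.8% in WT and 82.6% in KI. Cox7a1, the heart, muscle and brown fat form of subunit 7a, was 7.99% and 11.0% of Cox7a1 plus Cox7a2 on HFD (WT and KI), 7.84% and 9.98% on chow and 75.7% and 76.2% in BAT. In chow KI mouse 4, the library with muscle markers at 87220 CPM, the Cox7a1 share was 50.6%. The log2 difference of Cox7a1 on chow was 2.01 (adjusted p = 0.0498, edgeR), from 5.17, 7.61 and 10.1 CPM in WT to 9.75, 14.8 and 126.7 in KI, with mouse 4 the highest. Cox4i2, a form of subunit 4 known from lung and from hypoxia, was 4.99% and 3.96% of the subunit 4 mRNAs on HFD, 2.79% and 1.78% on chow and 0.635% and 0.580% in BAT. Ndufa4l2, a paralogue of Ndufa4, was 20.8% and 18.6% of the pair on HFD, 14.4% and 10.7% on chow and 3.28% and 3.19% in BAT. Cox6b2, a testis-type form of subunit 6b, was at most 1.37% of its pair in each mouse. Other subunits of complex IV had differences of 0.27 for Cox5b, -0.02 for Cox7c, 0.00 for Cox6c, 0.03 for Cox7b, -0.02 for Cox7a2l, 0.05 for Cox7a2, 0.20 for Cox8a, 0.22 for Cox6a1 and 0.03 for Cox6b1 between KI and WT on HFD, none past the threshold (edgeR adjusted p 0.0248 to 0.996). Of the 3 genes for the c-ring of ATP synthase, Atp5g3 gave a median of 60.8% to 76.8% of TPM in the 6 groups, Atp5g2 18.4% to 32.6% and Atp5g1 1.09% to 6.63%.

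Cox6a2, the heart and muscle form of subunit 6a, was low and uneven, and its values are given with those of muscle creatine kinase (Ckm), a skeletal muscle marker. In BAT, WT mice 1 and 2 had 15.9 and 14.6 CPM of Cox6a2 with 390 and 445.1 CPM of Ckm, and the other 4 WT mice had 0 to 0.59 CPM of Cox6a2 with at most 4.47 CPM of Ckm. All 6 BAT KI mice had Cox6a2, at 8.50 to 20.3 CPM, with Ckm at 0 to 114 CPM, in 2 of them at 0. With all mice the BAT difference was 1.62 (adjusted p = 0.33, edgeR; exact permutation p = 0.0216). Without WT mice 1 and 2, a choice made after the data were seen, it was 6.43 (adjusted p = 2.28e-05, edgeR), a fitted value that depends on counts near 0 in WT. In inguinal WAT on HFD Cox6a2 was at 1.59, 6.53 and 14.2 CPM in WT and at 8.52, 11.4 and 45.3 in KI (1.28, adjusted p = 0.0551), the highest being KI mouse 3. On chow it was at 0.0994, 0.921 and 6.99 CPM in WT and at 7.05, 16.2 and 241.6 in KI, the highest being KI mouse 4 (4.99, adjusted p = 0.014, edgeR; exact permutation p = 0.00117). Without the marker mice the differences were 0.64 (adjusted p = 0.258) on HFD and 3.05 (adjusted p = 0.0254) on chow. On HFD this left out KI mice alone, while WT mice 1 and 2 stayed, with Ckm at 204.8 and 213 CPM. Cox6a2 (7:128205435-128206387) lies inside Itgad on the opposite strand, and reads of the pair cannot be told apart without a strand rule. Itgad counts were 15 to 118 in KI and 355 to 1863 in WT on HFD, 1 to 17 in KI and 4 to 626 in WT on chow, and 0 to 18 in BAT. The part of Itgad reads in the Cox6a2 values was not tested.

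**Figure D4:**
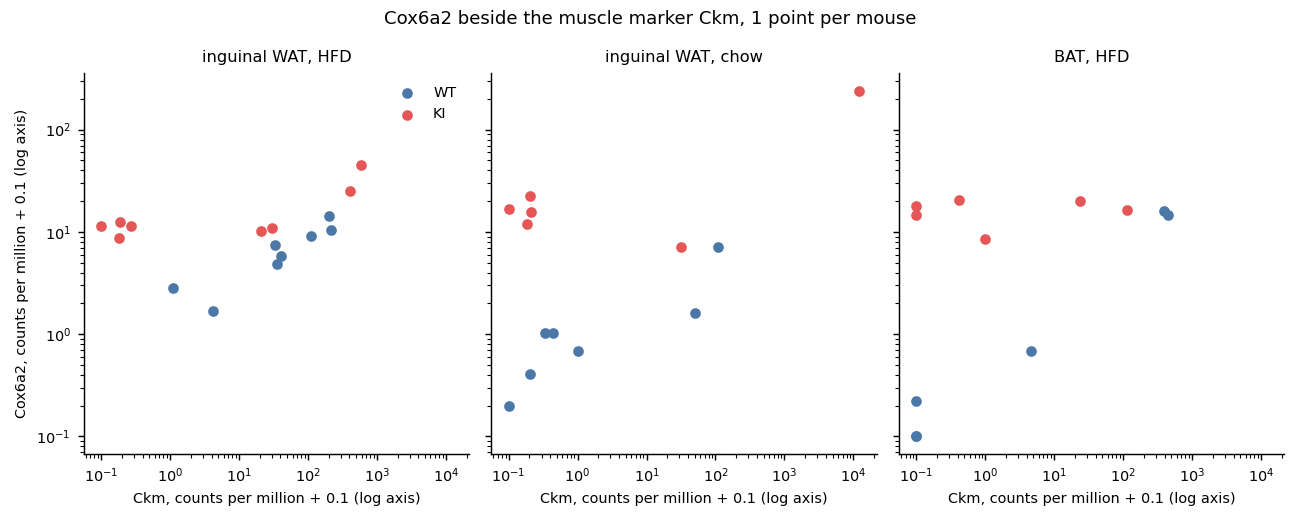
Cox6a2 against the muscle marker Ckm, both in CPM + 0.1 on log axes, 1 point per mouse, for WT (blue) and KI (red) in the 3 settings. The libraries with high Ckm also have Cox6a2, chow KI mouse 4 being at the top right with 241.6 CPM of Cox6a2, and in BAT the KI mice lie at 8.50 to 20.3 CPM also where Ckm is near 0.

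The 13 mRNAs encoded by mtDNA, which provide the remaining subunits of complexes I, III, IV and V, are set beside the nuclear-encoded members. In inguinal WAT on HFD all 13 fell in KI (median log2 difference -1.78, range -2.17 to -1.30), while 16 nuclear-encoded members rose. All genes of mtDNA made up a median of 9.91% of counts in HFD WT and 2.52% in HFD KI, and with these genes left out before scaling 17 nuclear-encoded members were again called. On chow 0 of 12 mtDNA mRNAs tested were called by edgeR (median -0.50). In BAT 2 of 13 fell, mt-Nd4 (-0.94) and mt-Co1 (-0.75), with a median of -0.69.

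Genes that assemble, feed or regulate the chain were counted from fixed lists. The shares of all genes called (6.21% higher and 5.24% lower on HFD, 2.06% and 1.22% on chow, 1.36% and 0.475% in BAT) stand beside these counts. Of 58 assembly factors tested, 4 rose and 3 fell in KI on HFD (median 0.07), shares near those of all genes: Uqcc2 (0.62) and Uqcc1 (0.30) of complex III assembly, Ecsit (0.29) of complex I assembly and Lrpprc (0.43), which stabilises mtDNA-encoded mRNAs, against Cmc2 (-0.70) of complex IV assembly, Acad9 (-0.57) of complex I assembly and Higd1a (-0.33). On chow 4 rose and 0 fell, Uqcc2 (0.82), Tmem126a (0.51), Lrpprc (0.49) and Ndufaf4 (0.49), and in BAT 0 of 58 passed. Of 21 carriers and ubiquinone genes, 4 rose on HFD, Gpd2 (1.13), which feeds electrons from glycerol 3-phosphate to ubiquinone, Coq7 (0.54), Etfa (0.33) and Coq2 (0.27), and 0 fell. On chow 5 rose, Gpd2 (1.62), Coq7 (0.83), cytochrome c (Cycs, 0.67), Coq3 (0.62) and Coq9 (0.50), and in BAT 1 rose, Coq8b (1.00). Cyc1, the cytochrome c1 subunit of complex III that the rule did not match by name, had a difference of 0.31 on HFD (adjusted p = 0.022, edgeR). Of 14 transcriptional regulators tested in inguinal WAT, Esrrg fell on HFD (-1.06) and Nrip1 fell on chow (-0.80), 1 gene each (on HFD near the share of all genes called lower), with 0 of 15 called in BAT. Ppargc1a, the coactivator of mitochondrial biogenesis, had differences of 0.56 on HFD (adjusted p = 0.037), -0.69 on chow (0.245) and 1.23 in BAT (0.035, edgeR).

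Markers of cell types moved as follows. Of 10 white adipocyte markers, Lipe (0.54) and Pnpla2 (0.46) rose and Adipoq, Lep and Retn fell on HFD, and Retn fell on chow and in BAT. Of 10 brown adipocyte markers, 5 were tested in inguinal WAT, where on HFD Cidea (1.55) rose and Prdm16, Kcnk3 and Otop1 fell, and in BAT 0 of 10 were called. Of 6 fibroblast markers Lum and Dpt fell on HFD, and Dpt fell on chow and in BAT. Of 9 macrophage markers Itgax fell on HFD, and of 10 lymphocyte markers Ighm fell on HFD, the lymphocyte sum being 457.5 to 1898 CPM in WT and 81.9 to 1261 in KI. Of the 12 skeletal muscle, 6 endothelial and 7 epithelial markers, 0 of those tested were called by edgeR in the 3 KI comparisons. The part of these cell types in the members' differences was not tested.

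Between tissues, the nuclear-encoded chain was far higher in BAT than in inguinal WAT on HFD. Tissue and table cannot be told apart in this contrast. In WT mice 77 of 81 members were higher in BAT and 1 was lower, where 26.9% of all genes were called higher and 29% lower, with a median log2 difference of 3.10 (all genes -0.09). In KI mice the counts were also 77 and 1, against 28.4% and 30.7% of all genes, with a median of 3.15 (all genes -0.12). By complex the WT medians ran from 2.46 in complex V through 3.01 in I, 3.14 in IV and 3.27 in II to 3.75 in III. Cox8b (9.05 in WT, 8.37 in KI) and Cox7a1 (8.49 and 8.23) stood far above the rest, from 4.20 to 22.7 CPM of Cox8b over all inguinal HFD mice to 2216 to 4784 in BAT. Other high differences within their complexes were 4.42 for Ndufv1, 4.37 for Ndufa1, an accessory subunit of complex I, 4.23 for Sdhb, 4.16 for Atp5k and 3.86 for Atp5e, small subunits of ATP synthase (WT). In KI mice these were 4.00 for Ndufv1, 4.26 for Ndufa1, 3.66 for Sdhb, 4.26 for Atp5k and 4.09 for Atp5e.

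The members that did not follow were few. Atp5g1, 1 of the 3 c-ring genes, was the only one called lower in BAT. It was at 34.8, 45.6 and 54.7 CPM in HFD WT inguinal WAT and 13.2, 14.9 and 22.9 in BAT WT (-0.89 in WT, adjusted p = 2.28e-07, and -0.94 in KI, edgeR). Ndufa4l2 (0.03 and 0.35), Cox4i2 (0.10 and 0.40) and Cox6a2 (0.12 and 0.53) were not called in either genotype. The WT value of Cox6a2 rests on BAT WT mice 1 and 2, at 15.9 and 14.6 CPM, which had high muscle markers. BAT WT mice 3 to 6 were at 0, 0.12, 0 and 0.59 CPM, below the 1.59 to 14.25 CPM of HFD WT inguinal WAT. Among the lowest called differences in WT were 1.26 for Atp5j, 1.36 for Atp5g2 and 1.42 for Ndufb2, with Atp5g3 between these last. The Ndufb2 gene overlaps Braf and an antisense transcript. The other named ends of each complex in WT were 2.19 for Sdhc, 3.10 for Sdha and 3.43 for Sdhd in complex II, and 2.72 for Uqcrb, 3.19 for Uqcrc2, 3.91 for Uqcr11 and 4.09 for Uqcrfs1 in complex III. In KI mice the lowest called differences of each complex were 1.99 for Ndufs5, 2.06 for Sdhc, 2.73 for Uqcrb, 2.23 for Cox8a and 1.35 for Atp5j.

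Between diets, inguinal WAT had less of nearly all members on HFD than on chow. Diet and table cannot be told apart in this contrast. Total counts per mouse were 17572752 to 25680411 on HFD and 8668279 to 11720458 on chow. In WT mice 67 of 81 were lower on HFD and 0 higher, where 16.6% of all genes were called lower and 11.7% higher, with a median log2 difference of -0.78 (all genes 0.01). In KI mice 76 were lower and 0 higher, against 16.6% lower and 14.1% higher of all genes, with a median of -0.97 (all genes 0.02). Complex III had the lowest medians, -0.99 in WT and -1.33 in KI, and complex V the highest, -0.64 and -0.80. Cox8b fell furthest (-2.46 in WT, -3.81 in KI), then Atp5k in WT (-1.76; -2.22 in KI), with Ndufa2, an accessory subunit of complex I, at -1.69 and -1.97. In KI mice Cox7a1 was second (-2.31, adjusted p = 8.15e-05, edgeR). Within their complexes, the lowest or next lowest in WT were also Ndufa1 (-1.65) in I, Sdhd (-0.96) in II, Uqcr11 (-1.41) and Uqcrfs1 (-1.11) in III, Cox6b2 (-1.54) in IV and Atp5e (-1.35) in V. Sdhb fell by 1.10 in WT and 1.06 in KI on the log2 scale, from chow medians of 213.4 and 311.6 CPM to HFD medians of 100.9 and 172.9. In WT the members nearest 0 or above it were Ndufb2 (0.31) and Ndufb4 (0.20) in complex I, Sdhc (-0.35, called) in II, Uqcrb (-0.37) in III, Cox6a2 (2.00, adjusted p = 0.0501) and Cox4i2 (0.09) in IV, and Atp5mpl (-0.28) and Atp5h (-0.35) in V. In KI mice they were Ndufa4l2 (0.07), Ndufb4 (-0.06), Sdhc (-0.35), Uqcrc1 (-0.59), Cox4i2 (0.10) and Atp5h (-0.40), of which Sdhc, Uqcrc1 and Atp5h were called. The mtDNA mRNAs went the other way in WT mice, with 12 of 13 higher on HFD (median 1.41), and 0 of 13 were called by edgeR in KI mice (median 0.01).

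**Figure D5:**
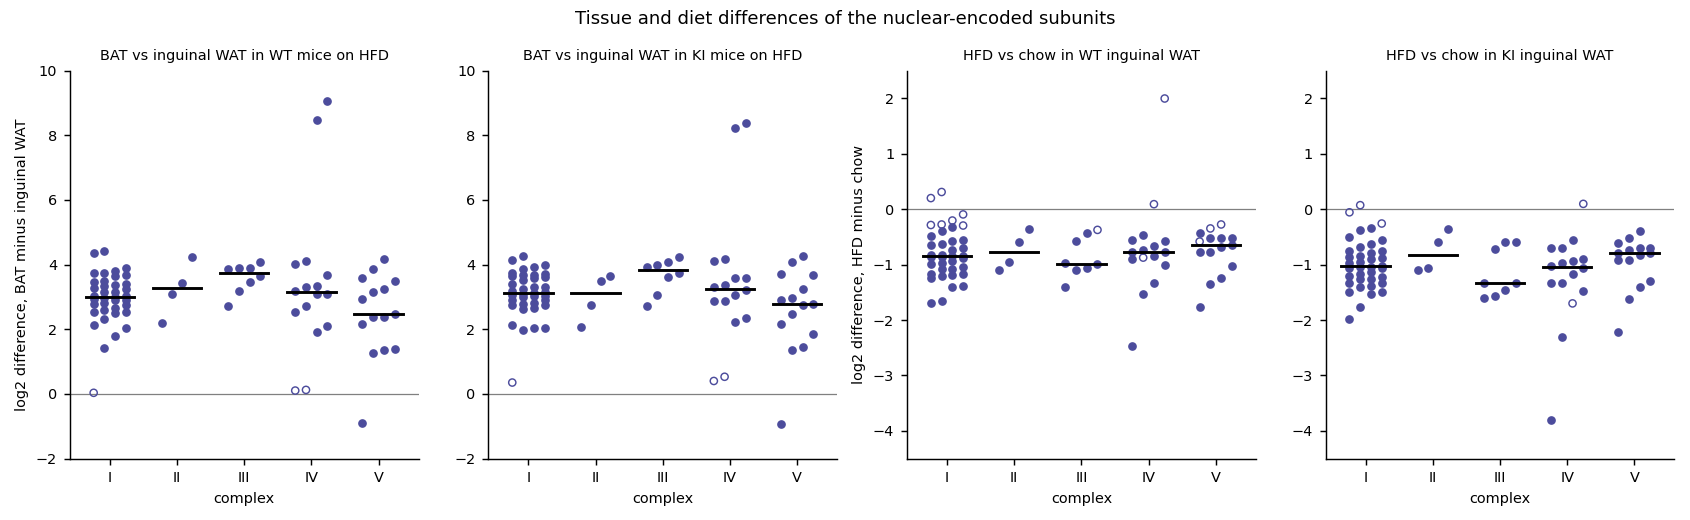
Log2 differences of the tested members by complex for BAT minus inguinal WAT (WT and KI, on HFD) and for HFD minus chow in inguinal WAT (WT and KI); filled points passed adjusted p below 0.01 (edgeR), open points did not, and black lines are medians. Medians lie between 2.46 and 3.83 for tissue and between -1.33 and -0.64 for diet, with Cox8b and Cox7a1 at the top of the tissue panels.

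Per length, members of 1 complex were far from equal. By mean TPM over the 6 groups the highest and lowest members were Ndufa2 and Ndufb2 in complex I, Sdhd and Sdhc in II, Uqcr10 and Uqcrc2 in III, Cox8b and, of those tested, Cox6b2 in IV, and Atp5b and Atp5g1 in V. In BAT WT the median TPM was 10750 for Cox8b and 6.73 for Cox6b2, and in HFD WT it was 46.4 and 2.52. With the length of the longest transcript in place of merged exons, Ndufa4 was highest in complex I and Sdhb in complex II, so neighbours in this order are not told apart. Ndufb2 stood at a median of 6.08 to 11.7 TPM in the 6 groups, below the next lowest member of complex I, Ndufb5 at 24.7 in HFD WT. Between mice of 1 group, the highest value of a member was a median of 1.30 to 1.72 times the lowest.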

How the data were processed

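RNA sequencing covered 57 samples, given as 41 columns of counts, 1 per mouse, in 3 tables, 1 per tissue and diet. The counts of reads per gene were deposited by the authors, who per their methods trimmed adapters with cutadapt, aligned to GRCm38 with STAR, sorted with SAMtools and counted with featureCounts from Illumina TruSeq paired-end libraries (RIN at least 8); versions, annotation and the strand setting are not given in the sources used here. Of 54838 rows, 1884 held no count and 99 repeated symbols had identical counts and were used once, which gave 52853 genes. Groups followed the labels, and the 2 technical replicates of each inguinal HFD mouse counted as 1 mouse. Columns whose counts agree within sampling noise were not found.

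Counts were scaled with TMM and tested with edgeR 4.0.16 (quasi-likelihood, robust, filterByExpr) in R 4.3.3 with limma 3.58.1, the 3 KI and WT pairs within their tables and the tissue, diet and interaction contrasts across 2 tables. P-values were adjusted by Benjamini-Hochberg over all genes tested and called below 0.01, the study's threshold (which it applied to DESeq2, here an alternative, version 1.42.0). CPM and TPM were computed from the counts, TPM with the merged exon lengths of the tables. Exact permutation tests on log2(CPM + 0.5) were two-sided. The scripts were tested on simulated counts with the depth, group sizes and spread of each KI and WT pair. In these, 200 genes drawn at random from all genes tested were changed and no others. At a log2 change of 0.5, edgeR called 23.5% of them on HFD, 2% on chow and 0% in BAT. At a log2 change of 1 it called 72%, 64.5% and 59.5%. Nothing states that mice of equal number in 2 tissues are the same animal.

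The members, the lists (assembly factors, carriers and ubiquinone genes, mtDNA-encoded mRNAs, regulators, and markers of white and brown adipocytes, fibroblasts, macrophages, lymphocytes, skeletal muscle, endothelium and epithelium) and the tests were chosen with earlier results of these data known. Named are called members (up to 4 per complex and direction), the 5 members with the smallest p where fewer than 3 were called, isoform pairs, catalytic core subunits, subunits of the study's immunoblots, the 2 highest and 2 lowest members per complex for tissue and diet, the highest and lowest by TPM, and untested members; 1 core subunit that the rule names is not reported here by name. Alternatives were other thresholds, DESeq2, RLE factors, total counts, other low-count filters, mtDNA genes left out, 1 fit of all groups, a replicate block and leaving out each mouse. Leaving out 6 mice with high muscle (over 2000 CPM) or epithelial markers (over 100 CPM), library sizes from tested genes and another transcript length were added after seeing the data.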

Additional observations from a re-analysis of the deposited data

Results flagged for a closer look

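Of 66 groups of values examined for 1 mouse far from the rest of its group, 7 were set apart by a gap that is large for the range of the group, and chance gives about 1 in 20. The complex V sum was 3011 CPM in HFD KI mouse 2 (other KI mice 3606 to 4107) and 7454 CPM in chow KI mouse 1 (others 5844 to 6400). Sdhb was 116 CPM in HFD WT mouse 1 (others 96.3 to 102.8). Cox7a1 was 126.7 CPM in chow KI mouse 4 (others 9.75 to 18.7). Cox6a2 was 45.3 CPM in HFD KI mouse 3 (others 8.52 to 25.0), 6.99 CPM in chow WT mouse 2 (others 0.0994 to 1.53) and 241.6 CPM in chow KI mouse 4 (others 7.05 to 22.5). The Cox7a1 and Cox6a2 values belong to the mice with the highest Ckm of their groups. Chow WT mouse 2 also had the highest Itgad count of its group, 626. The parts of muscle RNA and of Itgad reads in these values were not tested.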

How the results depend on the processing

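The alternatives were run over 9 comparisons. Single members were followed only in the KI comparisons and the interaction tests. These were the called members or, where fewer than 3 were called, the 5 with the smallest p, with Cox6a2 and Cox7a1 added in KI comparisons. None of them changed direction where either fit called it. Under other settings, a change of sign where neither fit called the member was not counted. Members named for tissue and diet were not followed singly. Besides the counts given with the results, a threshold of 0.001 called 8 members on HFD (7 higher, 1 lower) and 0 on chow. Of all genes it called 2.6% higher and 2.74% lower on HFD, and 0.629% and 0.239% on chow. In BAT a threshold of 0.05 called 2 higher (Ndufa11 and Ndufa12), against 4.15% of all genes. There 1 fit of all 6 groups called 3 higher (with Cox7a2l), against 3.83%. For both, the members' share was not above that of all genes. The BAT fit without the marker mice called 1 higher (Cox6a2), against 0.849%. On HFD total counts alone called 31 and 1 fit of all groups 7. On chow a threshold of 0.05 called 25, DESeq2 22, and 1 fit of all groups 17. For the difference of KI effects between diets DESeq2 called 1. Between tissues 0.05 called 2 (Sdhb and Atp5g3), and DESeq2, total counts (Sdhb) and the fit without the marker mice (Cox6a2) called 1 each. For these interaction counts the shares of all genes called are not reported here, so the counts cannot be read against them. Fits without 1 mouse called 12 to 19 on HFD, 1 to 4 on chow (1 without WT mouse 2 or 3), 0 in BAT and for the difference between diets, and 0 to 1 for that between tissues. With total counts alone the tissue medians were 2.583 in WT and 2.519 in KI, where the medians of all genes were -0.597 and -0.743. Nothing states that WT and KI mice of equal number are paired. Deviations of same-numbered mice correlated at -0.246 to 0.707 on HFD (median -0.185), -0.288 to 0.184 on chow (median -0.057) and -0.076 to 0.446 in BAT (median 0.109). A mouse correlated best with its own number in 1 of 8, 1 of 6 and 3 of 6 pairs. A replicate block called 14 members on HFD, where 4.86% of all genes were called higher and 4.52% lower. It called 0 on chow (0.595% and 0.219% of all genes), so that the 3 chow calls were lost, and 0 in BAT (1.76% and 0.972%). The cause of these shifts was not tested. On simulated counts, a log2 change of 0.5 was called in 2% of changed genes on chow and 0% in BAT, against 23.5% on HFD. The separate parts of depth (8042591 to 11720458 counts on chow and in BAT) and of group size in the lower counts there were not tested.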

Other observations

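Sdhb and Mfn2 lie on the same chromosome: Sdhb at 4:140961203-140979193 and Mfn2 at 4:147873599-147904704 (GRCm38), 6.89 Mb apart. Ndufb3, Ndufa10 and Cox8b lie on chromosomes 1, 1 and 7.

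Ndufa4 is counted in complex I by its symbol, although its protein is now placed in complex IV. With Ndufa4 and Ndufa4l2 moved to complex IV, the median log2 difference between KI and WT on HFD was 0.17 in complex I and 0.12 in complex IV, on chow 0.42 and 0.27, and in BAT 0.26 and 0.27.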
